A study of Mus musculus with 6 samples.

Results

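The nuclear genes of the mitochondrial respiratory chain were followed in cultured lung mesenchymal stromal cells (LMSCs) of tumor-bearing mice. Genes were taken by name: those starting with Ndufa, Ndufb, Ndufc, Ndufs or Ndufv, the genes Sdha to Sdhd, and those starting with Uqcr, Cox4 to Cox8 or Atp5. Names with a -ps suffix, which marks pseudogenes, were left out. Of 34745 genes in the table, 96 names matched, 4 of them were left out, and 92 genes remained: 43 for complex I, 4 for complex II, 8 for complex III, 20 for complex IV and 17 for complex V.

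The mice were of the MMTV-PyMT strain, in which a mammary tumor virus promoter drives the polyoma middle T oncogene in mammary tissue, so that mammary tumors arise and spread to the lung. LMSCs were grown from lungs of mice at 6 to 7 weeks (adenoma stage, A-LMSCs), 9 to 10 weeks (pre-metastatic stage, PM-LMSCs) and 13 to 14 weeks (metastatic stage, M-LMSCs), all carrying the transgene, and no other treatment is labelled. The cells were the CD45- adherent fraction of digested lung, cultured to passage 3. RNA of 2 libraries per stage was analysed, and the third mouse of each stage that the study describes was not analysed here. For the earlier stages the paper's text gives slightly older ages than the labels used here. Age and tumor stage change together, so they cannot be told apart.

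Values were FPKM (fragments per kilobase of gene per megafragment mapped). Estimated depths were between 14.95 and 21.05 megafragments a library. All 13 stromal markers on the list, such as Col1a1 and Pdgfrb, passed the level filter, and their summed level lay between 1769 and 2930 FPKM. Of 12 haematopoietic markers, 4 passed the filter and Ly6g and S100a9 were listed at 0 in every library, while the sum, mostly Lyz2, was between 122.4 and 129.9 FPKM in A-LMSCs, 74.9 and 165 in PM-LMSCs, and 280 and 390 in M-LMSCs. The 6 mesothelial markers all passed, with sums of 119 and 177 FPKM in A-LMSCs, 291 and 407 in PM-LMSCs, and 195 and 486 in M-LMSCs. Of 10 epithelial markers, 2 passed (Krt8 and Krt18), and the sums, 3.54 and 6.87 FPKM in the first stage, came to 10.6 and 18.4 in the second and 10.6 and 23.3 in the third. Of 7 endothelial markers, 1 passed (Kdr, with list sums between 1.70 and 1.77 FPKM at the earlier stages and 2.74 and 2.97 in M-LMSCs). With the replicate number as a block in the limma fit, Krt8 and Krt18 were called higher than in A-LMSCs at both later stages (log2 fold changes of 1.47 and 1.15, then 1.42 and 1.21). The mesothelial marker Lrrn4 was called at both stages as well (1.34 and 1.36), and Upk3b (1.43), Kdr (0.61) and the haematopoietic markers Lyz2 (1.44), Cd14 (0.77) and Cd68 (0.74) were called in M-LMSCs. In all, 4 mesothelial markers were called higher in M-LMSCs with the block, and 1, Krt19, was called lower. Without the block none of the markers called higher was called, while Krt19 was again called lower. In bulk RNA, fewer cells of a type and less RNA per cell cannot be told apart.

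The respiratory chain sits in the inner mitochondrial membrane. Complexes I and II pass electrons from NADH and succinate to ubiquinone, complex III hands them on to cytochrome c, complex IV passes them to oxygen, and complex V (the ATP synthase) uses the proton gradient they build to make ATP. Most subunits are made from nuclear genes and imported, while a small set, including part of the core of complexes I, III and IV, is made from mitochondrial DNA, so both genomes must be expressed side by side. Transcription factors known to act at promoters of these genes include NRF1, the ETS factor GABP and YY1.

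The members' promoters were searched for the core letters of these 3 factors, since the genes are scattered over 19 chromosomes and share no position. RefSeq promoters (GRCm38.p6, 250 bases before to 50 after the start) were found for 76 of the 92 genes. The NRF1 letters GCATGCGC, on either strand, were in the window of 12 of the 76 genes (15.8%) against 3.05% of 27025 genes in all. The ETS letters CCGGAAG were found in 17 (22.4% against 9.93%) and the YY1 letters AAGATGGC in 11 (14.5% against 3.19%). At least 1 of the 3 was present for 34 of the 76 genes (44.7%, against 14.9% of all genes). Letters of different factors shared no bases in any member, whereas in 7 members, among them Atp5g2, Cox6a1 and Uqcrc1, the NRF1 letters lay on both strands over the same palindrome. Median GC content was 58.0% in the members' windows and 52.7% in all windows. These matches are letters in a window, and binding was not measured. The 150 bases before the start are shown for Ndufa6 and Atp5j, as examples of members that hold such letters. Capitals mark NRF1 in Ndufa6, and YY1 and then ETS in Atp5j. Atp5j has a further start upstream, and the 150 bases before that one (chr16:84835626-84835775) hold none of the 3. Also shown are Ndufa4 and Atp5s, the members with the highest fold change in M-LMSCs against A-LMSCs, which hold none of the 3 there. Sequences read 5′ to 3′ on the gene's strand.
Ndufa6 (chr15:82354292-82354441, minus strand): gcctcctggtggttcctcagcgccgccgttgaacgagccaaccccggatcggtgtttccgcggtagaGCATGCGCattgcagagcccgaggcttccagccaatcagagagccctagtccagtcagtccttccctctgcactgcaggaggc
Atp5j (chr16:84834977-84835126, minus strand): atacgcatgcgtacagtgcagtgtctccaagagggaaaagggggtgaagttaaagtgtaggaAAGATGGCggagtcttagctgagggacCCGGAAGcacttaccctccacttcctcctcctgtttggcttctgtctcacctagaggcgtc
Ndufa4 (chr6:11907451-11907600, minus strand): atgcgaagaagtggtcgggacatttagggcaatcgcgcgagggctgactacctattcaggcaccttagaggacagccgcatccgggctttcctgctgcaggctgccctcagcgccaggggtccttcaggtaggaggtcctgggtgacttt
Atp5s (chr12:69724795-69724944, plus strand): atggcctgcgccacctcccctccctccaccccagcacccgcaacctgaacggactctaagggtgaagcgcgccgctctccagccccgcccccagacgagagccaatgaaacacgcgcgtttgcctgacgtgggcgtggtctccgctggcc

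Most members were expressed above the median gene tested. A gene was tested if its mean over the 6 libraries was at least 1 FPKM, which 88 of the 92 members and 10279 genes in all met. The members' median level was 21.8 FPKM, against 6.45 FPKM over all genes tested, and 64 of the 88 (72.7%, against 37.8% of all genes tested) were at 10 FPKM or more. Their annotated exons, merged over all transcripts of a gene, were short, with a median length of 1.74 kb against 4.25 kb. The 7 members at 100 FPKM or more were the complex IV genes Cox8a (mean 306 FPKM), Cox6b1 (215), Cox6a1 (202), Cox5a (150) and Cox4i1 (119) and the beta (catalytic) and alpha subunits of the ATP synthase head, Atp5b (230) and Atp5a1 (141.8). The highest member of complex I was Ndufb9 (94.4 FPKM), of complex II the membrane anchor Sdhd (86.9) and of complex III the Rieske iron-sulfur protein Uqcrfs1 (84.2). The name rule does not take Cyc1, the cytochrome c1 of complex III, which was between 88.3 and 145 FPKM.

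**Figure D1:**
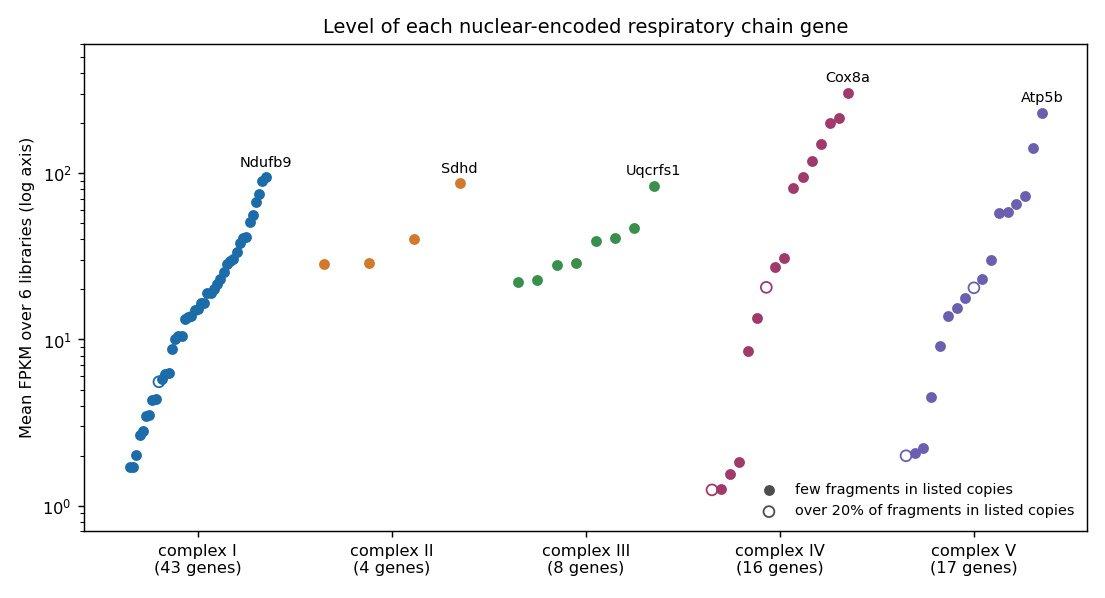
Mean FPKM over the 6 libraries (log axis) of the 88 members tested, by complex, 1 point a gene in order of level. Open circles mark the 5 genes with over 20% of their fragments in listed near-identical copies, and filled circles include genes whose copies are not listed. The gene of highest level in each complex is named, from Uqcrfs1 in complex III at 84.2 FPKM to Cox8a in complex IV at 306 FPKM.

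Complex IV has subunits that exist as a common form and as a form known from muscle, testis or lung, and in the LMSCs the values listed for the common forms were far higher. Cox4i1 was at 119 FPKM and its lung and low-oxygen isoform Cox4i2 at 1.25 FPKM. Cox6b1 (215 FPKM) stood beside the testis form Cox6b2 (1.83), and Cox7a2 (82.1) beside the muscle form Cox7a1 (1.55). The 4 members under the level filter were also isoforms of this kind: Cox6a2, the muscle partner of Cox6a1, was between 0.20 and 0.53 FPKM, Cox7b2 reached at most 0.09 FPKM beside Cox7b at 27.5, and Cox8b and Cox8c were listed at 0 in all 6 libraries beside Cox8a at 306. A listed 0 need not mean absence, since the mitochondrial gene mt-Co2, which every cell uses, is also listed at 0 in all 6. The exception was the pair Ndufa4 and Ndufa4l2, whose levels were alike in A-LMSCs and are described last.

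Some of the levels are uncertain. Of the 92 members, 27 share a near-identical stretch with another annotated gene. For some, such as Ndufa13 (with Tssk6) and Ndufb5 (with Mrpl47), that gene overlaps the member's own exons, and for others it is a copy elsewhere. For 5 of the 27, more than 20% of the fragments of gene and copies together were in copies the table lists: Ndufs5 (80.7%), Atp5h (53.4%), Cox5b (48.4%), Cox7c (32.7%) and Atp5g2 (30.2%). Only 11 of the 27 have such a gene or copy in the table, and for the others, Cox6c among them, this share could not be estimated. Cox7c was at 1.24 FPKM, the lowest of the 88. Exons of 29 members overlap a gene on the other strand, and whether strand was used in counting is not given in the sources used here.

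The first question was whether the chain as a whole changed with stage, and summed levels differed little. Together the 92 genes gave 3527 and 3488 FPKM in the A-LMSC libraries, 3410 and 3860 in the PM-LMSC libraries, and 3309 and 3645 in the M-LMSC libraries. The stages overlapped. As a share of the library these sums were 1.31% ± 0.01, 1.35% ± 0.10 and 1.33% ± 0.07 (SD, n = 2 each). Complex I summed to 982 ± 25.9, 1038 ± 79.6 and 975 ± 78.3 FPKM (mean ± SD, n = 2, in stage order). Complex II stood at 187 ± 5.44, 188 ± 11.1 and 177 ± 3.58 FPKM. Complex III gave 306 ± 8.69, 327 ± 28.8 and 308 ± 24.6 FPKM, and complex IV 1252 ± 59.6, 1290 ± 119 and 1286 ± 67.8. The complex III sums leave out Cyc1, at 125 and 139 FPKM in A-LMSCs, 120 and 145 in PM-LMSCs, and 88.3 and 109 in M-LMSCs. Both M-LMSC libraries of Cyc1 lay below every library of the other stages. Its log2 fold change was -0.42 against A-LMSCs (adjusted p = 0.292 by limma) and -0.42 against PM-LMSCs (adjusted p = 0.510 by limma). For complex V the sums were 780 ± 43.7, 792 ± 79.3 and 731 ± 62.9 FPKM. Only the complex II sums of M-LMSCs (174 and 179 FPKM) lay below every library of another stage, by small steps, the lowest other being 180 FPKM in a PM-LMSC library.

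**Figure D2:**
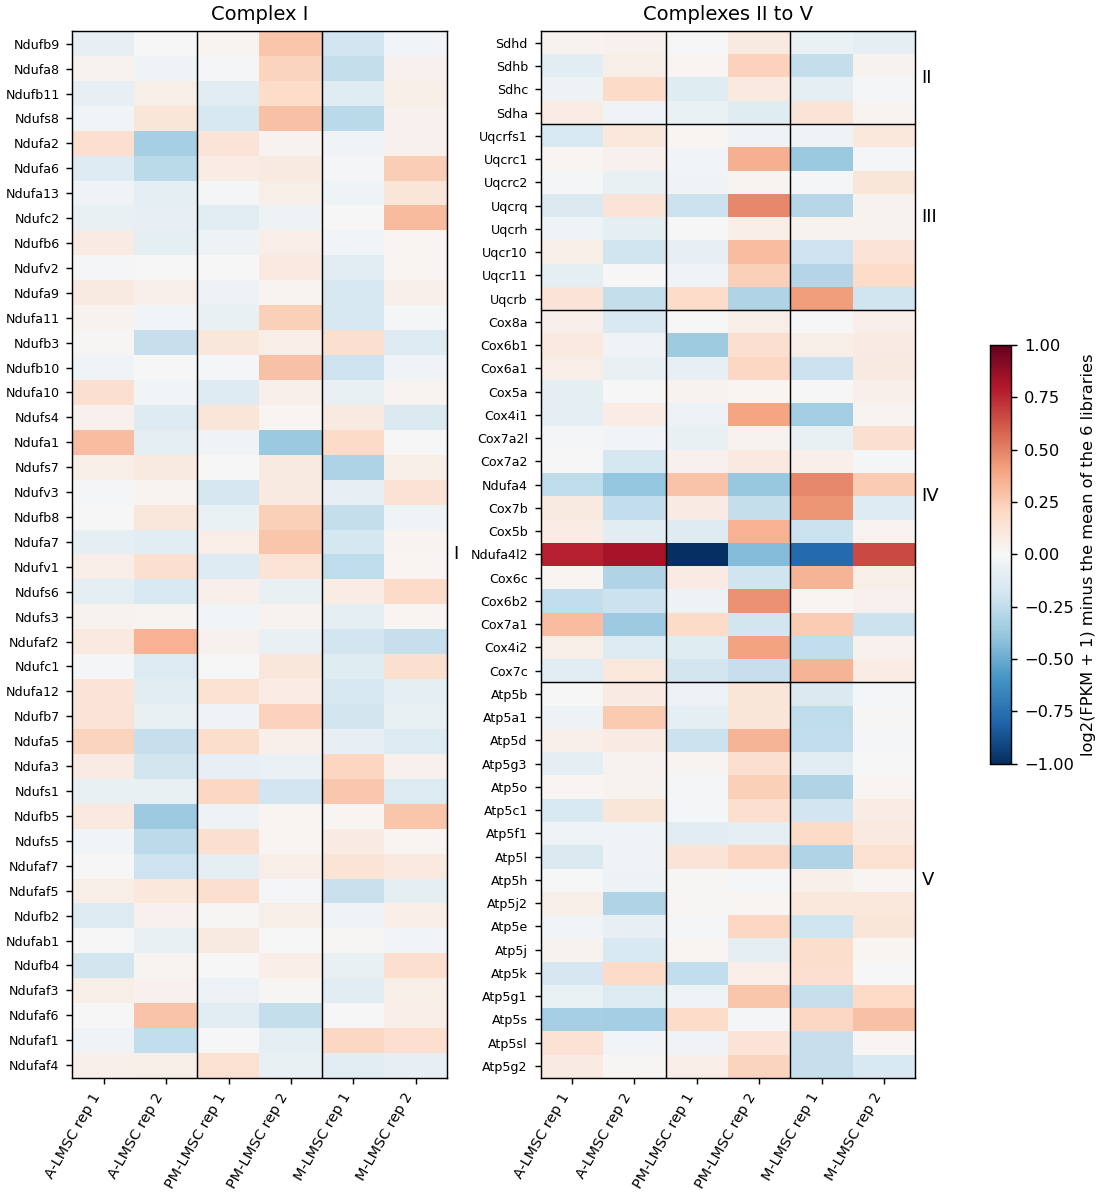
Each row is a tested member (1 of the 88 is not shown), each column a library, and the color is log2(FPKM + 1) minus the gene's mean over the 6 libraries (scale ends at -1 and 1), with members ordered by level within complexes I to V. Most rows stay pale, and Ndufa4l2 ranges most widely.

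In PM-LMSCs against A-LMSCs, 0 of the 88 members passed limma's test at an adjusted p under 0.05 (Benjamini-Hochberg over all genes), where 0.0389% of all genes passed. At an unadjusted p under 0.05 there were 3 members, Atp5s and Cox6b2 higher and Ndufa4l2 lower, or 3.41% against 6.53% of all genes. In both PM-LMSC libraries 17 members lay above both A-LMSC libraries (19.3%, against 19.6% of all genes) and 8 lay below (9.09%, against 19.7%). With the replicate number as a block the adjusted count remained 0, against 0.292% of all genes. The median log2 fold change of the members was 0.08, against 0.01 over all genes, and 62 of 88 were higher. By complex, the medians were 0.08 in complex I, -0.04 in II, 0.12 in III, 0.08 in IV and 0.09 in V. This small shift was not alike in both replicates: paired by number, the median was -0.03 in replicate 1, with 37 of 88 members higher, and 0.15 in replicate 2, with 70 higher.

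In M-LMSCs against A-LMSCs, limma again called 0 of the 88 members, where 0.0681% of all genes were called. There were 5 members with an unadjusted p under 0.05 (5.68%, against 14.6% of all genes): Atp5s, Ndufa4, the complex I accessory subunit Ndufa6 and the complex I assembly factor Ndufaf1 were higher, and the assembly factor Ndufaf2 was lower. Both M-LMSC libraries lay above both A-LMSC libraries for 15 members (17.0%, against 27.1% of all genes) and below for 14 (15.9%, against 24.4%). The median change was 0.02 in the members and 0.03 in all genes, with 47 of 88 members higher. Complex medians ran from -0.10 in complex II to 0.06 in complex IV. Paired by number, the members' median was -0.08 in replicate 1 and 0.07 in replicate 2. With the replicate block, 2 members (Atp5s and Ndufa4) and 3.92% of all genes were called. Both later stages share the A-LMSC libraries as their reference.

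In M-LMSCs against PM-LMSCs, limma called 0 of 88 members and 0.0292% of all genes. At an unadjusted p under 0.05 there were 3 (3.41%, against 8.94%): Atp5f1 (the ATP synthase b subunit) and Cox7c higher, and Atp5g2, which encodes the membrane ring subunit c, lower. Cox7c and Atp5g2 are among the 5 members with many fragments in copies. For 14 members both M-LMSC libraries were above both PM-LMSC libraries (15.9%, against 17.8% of all genes), and for 12 below (13.6%, against 16.7%). With the replicate block 0 members and 0.418% of all genes were called. The members' median was -0.05 and that of all genes -0.00, with 32 of 88 members higher. Paired by number, the median was -0.07 in replicate 1 and -0.05 in replicate 2, with 34 of 88 members higher in each, and 43 members were lower in both pairs (48.9%, against 33.7% of all genes). All 5 genes of the F1 head of the ATP synthase had lower values (as had 5200 of all 10279 genes), by -0.11 to -0.19 on the log2 scale, and 0 of them passed the test, adjusted or not. All 5 were lower in both same-numbered pairs. Between these 2 stages, however, the libraries of Atp5b, the catalytic beta subunit, overlapped: they were at 221 and 250 FPKM in PM-LMSCs and at 208 and 227 in M-LMSCs. Both M-LMSC libraries of Atp5b lay below both A-LMSC libraries (231 and 244 FPKM). Among the F1 genes this held for Atp5b and Atp5d, while for the others the libraries of these stages overlapped.

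**Figure D3:**
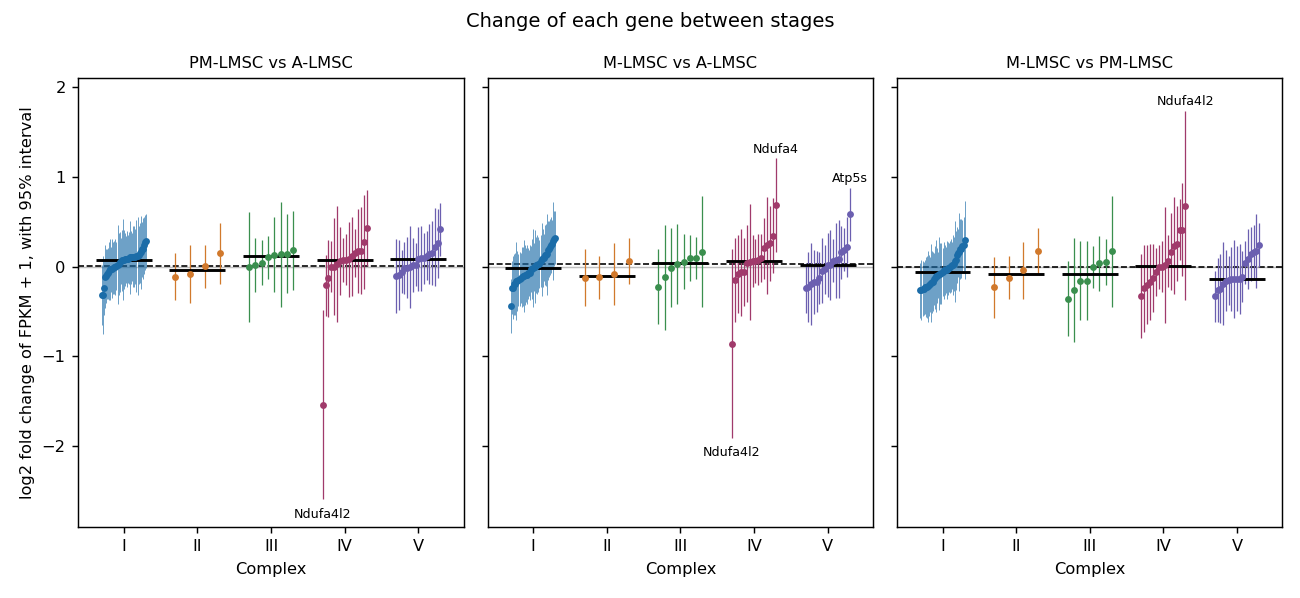
Log2 fold change on the FPKM + 1 scale with limma's 95% interval (lines) for each of the 88 members (points) in each contrast, by complex; thick bars are complex medians and the dashed line is the median of all 10279 genes tested. Most points lie within 0.5 of 0, and Ndufa4l2 (-1.54 in PM-LMSCs against A-LMSCs), Ndufa4 and Atp5s stand apart.

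With 2 libraries a stage the test bounds changes rather than showing that there were none. The median SE of a member's log2 fold change was 0.14. The 95% interval lay wholly within 1 on the log2 scale for 87, 86 and 87 of the 88 members in the 3 contrasts, in the order above. It lay within 0.5 for 54 (61.4%, against 57.8% of all genes), 51 (58.0% against 45.3%) and 45 (51.1% against 52.6%). A fitted change above 0.5 in size was seen for 1, 3 and 1 members, or 1.14%, 3.41% and 1.14%, where all genes gave 3.83%, 7.07% and 3.78%. These changes and intervals are on the FPKM + 1 scale, which understates the fold of low genes. Cox6b2, for example, had a mean of 1.38 FPKM in A-LMSCs and 2.26 in PM-LMSCs, with a fitted change of 0.43. The bounds therefore hold for that scale. The members' median level was above that of all genes tested, and the part this plays in these shares was not tested.

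The ranges of core subunits are given by complex. In complex I, the iron-sulfur protein Ndufs8 had FPKM values of 54.6 and 60.6 in A-LMSCs, 49.9 and 68.5 in PM-LMSCs, and 46.1 and 57.4 in M-LMSCs. The flavoprotein Ndufv1, where NADH is oxidized, was at 15.6 and 16.8, then 13.5 and 16.5, then 12.3 and 15.1 FPKM. For Ndufv1 both M-LMSC libraries lay below both A-LMSC libraries, while those of Ndufs8 overlapped. In both genes replicate 1 was the lower library of PM-LMSCs and M-LMSCs. Over the 7 core subunits of complex I the median changes were 0.02, -0.07 and -0.10 in the 3 contrasts. Of the complex I accessory subunits, Ndufa6 stood at 37.5 and 34.0 FPKM in A-LMSCs, against 43.4, 44.0, 40.7 and 49.0 in the 4 later libraries, all above both A-LMSC libraries (log2 fold change in M-LMSCs 0.31 ± 0.13 (SE), adjusted p = 0.325 by limma). Among the 7 assembly factors, which help build complex I without staying in it, Ndufaf2 had FPKM values of 14.1 and 17.0 in A-LMSCs, 13.6 and 12.4 in PM-LMSCs, and 11.4 and 11.0 in M-LMSCs. Its libraries stepped down without overlap between stages, and the change in M-LMSCs was -0.44 ± 0.13 (SE), with an adjusted p of 0.213 by limma. Ndufaf6 (-0.31) and the accessory subunit Ndufa1 (-0.31) had the next lowest values after Ndufa4l2 in PM-LMSCs against A-LMSCs.

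Complex II is wholly nuclear-encoded and also belongs to the tricarboxylic acid cycle. Sdha, the flavoprotein that oxidizes succinate, had FPKM values of 29.9 and 27.4 in A-LMSCs, 27.0 and 26.0 in PM-LMSCs, and 31.1 and 28.8 in M-LMSCs. The iron-sulfur subunit Sdhb was at 37.0 and 41.6, then 40.4 and 47.0, then 33.6 and 40.8 FPKM, with overlap between all stages. In complex III, the core protein Uqcrc1 was at 47.2 and 48.0, then 45.7 and 59.9, then 35.8 and 46.2 FPKM. Both M-LMSC libraries lay below both A-LMSC libraries, and its -0.36 against PM-LMSCs was the lowest value in that contrast (adjusted p = 0.623 by limma). Uqcrfs1 stayed between 75.3 and 90.3 FPKM in all 6 libraries.

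In complex IV, Cox4i1 had FPKM values of 110 and 124 in A-LMSCs, 113 and 155 in PM-LMSCs, and 92.0 and 120 in M-LMSCs, so the stages overlapped. Cox5a, which binds beside it, stayed between 140 and 155 FPKM. The small subunit Cox6c had the third highest value in M-LMSCs against A-LMSCs, at 8.59 and 6.69 FPKM against 11.0 and 8.89 (log2 fold change 0.34 ± 0.17 (SE), adjusted p = 0.411 by limma). The testis form Cox6b2 had the highest value in PM-LMSCs against A-LMSCs (0.43 ± 0.18), with 1 PM-LMSC library at 2.83 FPKM and the other 5 libraries between 1.35 and 1.87.

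Ndufa4l2 had the widest range of all members. It is a relative of Ndufa4 known to be induced at low oxygen, and Ndufa4, first described in complex I, is now placed in complex IV. Ndufa4l2 (chromosome 10, 127514967 to 127517154 in GRCm38, plus strand) had FPKM values of 20.7 and 21.4 in A-LMSCs, 5.15 and 8.39 in PM-LMSCs, and 6.42 and 19.0 in M-LMSCs. Both PM-LMSC libraries and the first M-LMSC library were low, and the second M-LMSC library was close to the A-LMSCs. In PM-LMSCs against A-LMSCs the log2 fold change was -1.54 ± 0.44 (SE), with a 95% interval from -2.60 to -0.48. The adjusted p was 0.524 by limma, and 0.0917 with the replicate block. Without the first M-LMSC library, whose distance from its replicate enters the shared spread, the unblocked value fell to 0.0499. In M-LMSCs against A-LMSCs the change was -0.86 (interval -1.91 to 0.20, adjusted p = 0.414 by limma), and without the second M-LMSC library -1.57 (adjusted p = 0.0484). In both cases the library left out is 1 of a pair far apart, and the lone M-LMSC library is assumed to vary like the other groups, so these values show how much the call depends on 1 library and support no change. Its exons share 32 bases with Shmt2, a mitochondrial serine enzyme on the opposite strand, which was at 131 and 152 FPKM, then 94.9 and 126, then 66.9 and 119. Shmt2 was lowest in the first M-LMSC library, as Ndufa4l2 was low there, and the part of the shared bases was not tested.

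Ndufa4 (chromosome 6, 11900292 to 11907497, minus strand) had FPKM values of 24.8 and 22.6 in A-LMSCs, 36.5 and 22.7 in PM-LMSCs, and 42.1 and 35.7 in M-LMSCs. The M-LMSC values exceeded both values of A-LMSCs, and the PM-LMSC libraries were split. The log2 fold change in M-LMSCs against A-LMSCs was 0.69 ± 0.22 (SE), with an interval from 0.17 to 1.21. Its adjusted p was 0.238 by limma, 0.04997 with the replicate block, and 0.0829 when the block was combined with a correction for GC content and length, which lowered the change to 0.55. Per length, Ndufa4 was 1.20 and 1.05 times as high as Ndufa4l2 in the A-LMSC libraries, 7.09 and 2.71 times in PM-LMSCs, and 6.55 and 1.88 times in M-LMSCs. The ratio was thus lower in both A-LMSC libraries than in any later one, and at each later stage it was higher in replicate 1.

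Atp5s (chromosome 12, 69724950 to 69744660, plus strand), named for a coupling factor of the ATP synthase and not a subunit of the enzyme proper, had FPKM values of 1.518 and 1.501 in A-LMSCs, 2.60 and 2.12 in PM-LMSCs, and 2.65 and 2.88 in M-LMSCs. All 4 later libraries lay above both A-LMSC libraries. The log2 fold change was 0.42 ± 0.12 in PM-LMSCs (SE, adjusted p = 0.531 by limma) and 0.58 ± 0.12 in M-LMSCs (adjusted p = 0.118 by limma, 0.0459 with the replicate block and 0.0879 with the block and the correction for GC content and length, which lowered the change to 0.45). As a low gene its fold is understated on the FPKM + 1 scale. The sums of the haematopoietic and endothelial markers, given above, were also higher in both M-LMSC libraries, and those of the epithelial and mesothelial markers were higher in all 4 later libraries than in A-LMSCs, although the mesothelial marker Krt19 fell in M-LMSCs (13.8 and 17.3 FPKM in A-LMSCs, 4.92 and 4.49 in M-LMSCs, called by limma). Their part in the values of Ndufa4 and Atp5s was not tested.

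**Figure D4:**
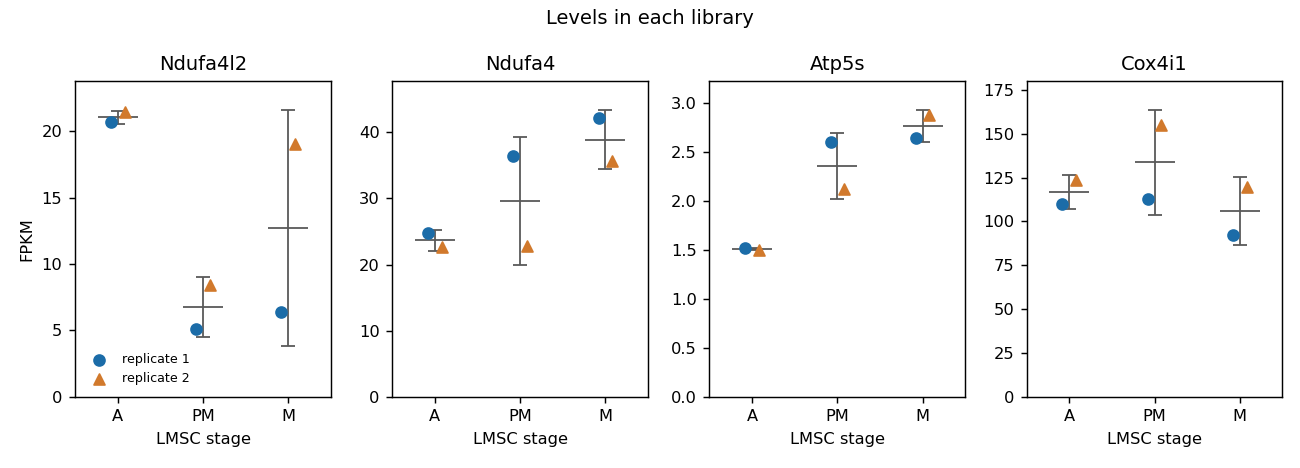
FPKM of Ndufa4l2, Ndufa4, Atp5s and Cox4i1 in each library (circles replicate 1, triangles replicate 2), with the stage mean and SD (bars, n = 2). Ndufa4l2 has FPKM values of 20.7 and 21.4 in A-LMSCs, 5.15 and 8.39 in PM-LMSCs and is split in M-LMSCs, Ndufa4 and Atp5s are above the A-LMSC libraries in both M-LMSC libraries, and Cox4i1 overlaps across stages.

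Replicates with the same number moved together across stages. Among the members, the deviation from the stage mean correlated between same-numbered libraries at r = 0.38 for A-LMSCs and PM-LMSCs, 0.37 for A-LMSCs and M-LMSCs, and 0.69 for PM-LMSCs and M-LMSCs (across 88 genes of shared libraries, as a description). Of the 88 members, 26 were higher in replicate 2 at all 3 stages and 15 in replicate 1, or 29.5% and 17.0%, against 21.2% and 26.0% of all genes. The difference between replicates followed GC content in PM-LMSCs and M-LMSCs: replicate 2 minus replicate 1 correlated with the GC content of the exons across the members at r = 0.05 in A-LMSCs, 0.55 in PM-LMSCs and 0.45 in M-LMSCs, beside 0.14, 0.49 and 0.42 over all genes tested. For the 45 members with a GC content of 50% or more (a split chosen after the values were seen), the median difference came to 0.22 at the pre-metastatic stage and 0.17 at the metastatic stage, with 39 of the 45 higher in replicate 2 at each. For the 43 members below 50% it was 0.01 and 0.05. Over all genes tested the medians at these 2 stages were 0.09 and 0.12 at 50% or more, and -0.19 and -0.13 below. Of the 5295 genes tested at 50% or more, 3600 and 3724 were higher in replicate 2.

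**Figure D5:**
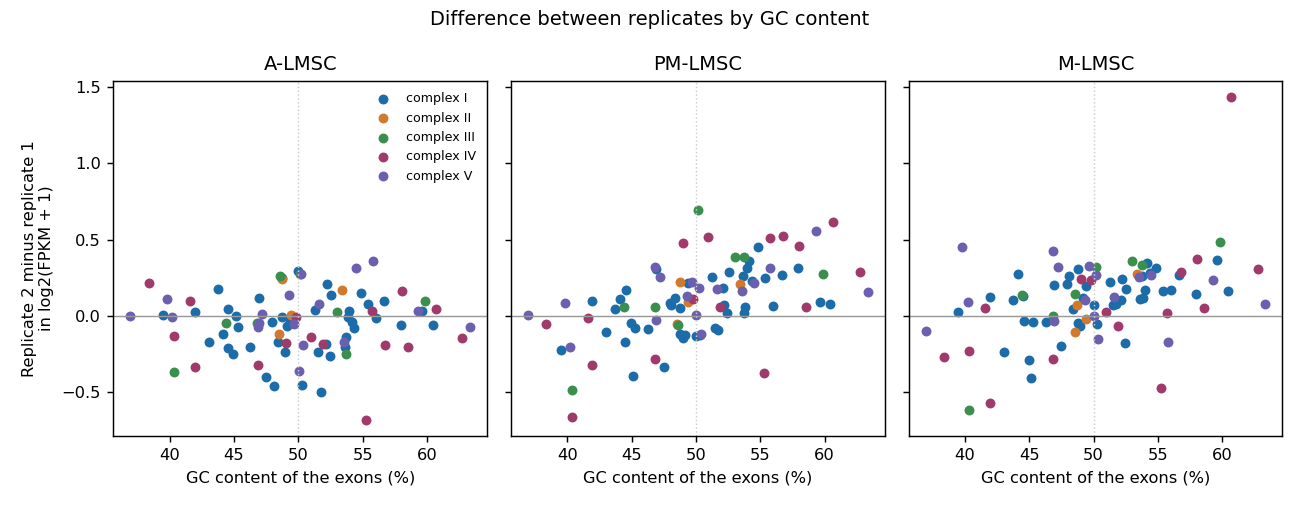
Replicate 2 minus replicate 1 in log2(FPKM + 1) against the GC content of the exons in the longest annotated transcript, for the 88 members. There is 1 panel a stage, colored by complex, with a dotted line at 50% GC. In A-LMSCs the points scatter about 0 (r = 0.05), and in PM-LMSCs and M-LMSCs members of higher GC content are higher in replicate 2 (r = 0.55 and 0.45).

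The subunits made from mitochondrial DNA were compared with the nuclear ones. Of 13 such genes, 6 (mt-Nd1, mt-Nd2, mt-Nd5, mt-Nd6, mt-Cytb and mt-Co1) had values in every library, while the others were listed at or near 0, mt-Nd4 in all but the second M-LMSC library (20.1 FPKM), so they were not used. The 6 genes summed to 7678 and 7034 FPKM in A-LMSCs, 9619 and 8280 in PM-LMSCs, and 8713 and 8689 in M-LMSCs, so the 4 later libraries lay above both A-LMSC libraries. The ratio of this sum to that of the 92 nuclear genes was 2.18 and 2.02 in A-LMSCs, 2.82 and 2.15 in PM-LMSCs, and 2.63 and 2.38 in M-LMSCs, with both M-LMSC libraries above both A-LMSC libraries and PM-LMSCs split. mt-Co1, the catalytic subunit of complex IV, was at 2952 and 2788, then 4219 and 3604, then 3369 and 3855 FPKM. Of the 7 mitochondrial genes that passed the level filter (mt-Nd4 among them), 0 passed limma's test in any contrast, and 1 had an unadjusted p under 0.05, in PM-LMSCs against A-LMSCs.

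Other lists of mitochondrial genes were read in the same fits. In the fit without the block, 0 genes were called in any of the 3 contrasts among 32 tested assembly factors of complexes II to V, 6 of complex I outside the Ndufaf names, 11 regulators of mitochondrial biogenesis, 13 enzymes of the tricarboxylic acid cycle, 18 genes of protein import, 76 mitochondrial ribosomal proteins and 5 electron carriers, cytochrome c1 among them. With the replicate block, 1 of these 161 genes was called (0.621%, against 3.92% of all genes, in M-LMSCs against A-LMSCs): the import gene Timm50, with FPKM values of 23.4 and 26.8 in A-LMSCs against 14.7 and 18.0 in M-LMSCs. At an unadjusted p under 0.05, the mitochondrial ribosomal proteins had 1, 9 and 14 of 76 genes in the 3 contrasts (1.3%, 11.8% and 18.4%, against 6.53%, 14.6% and 8.94% of all genes), and each other list at most 2. In M-LMSCs against PM-LMSCs the median changes were -0.16 for the mitochondrial ribosomal proteins (16 of 76 higher), -0.15 for import (4 of 18 higher) and -0.06 for the tricarboxylic acid cycle (0 of 13 higher), beside -0.05 for the respiratory chain and -0.00 for all genes. Of the regulators, the coactivator Ppargc1a was between 0.01 and 0.03 FPKM in all libraries. Nrf1 stayed between 1.40 and 1.73 FPKM, Tfam, which packs mitochondrial DNA and starts its transcription, between 2.52 and 3.62, Gabpa between 3.39 and 5.95, and Esrra between 9.62 and 11.5.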

How the data were processed

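RNA-seq libraries of cultured LMSCs were used, 2 per stage, and each column was matched to its stage and replicate by the sample labels (0 columns of values were not used). The authors deposited FPKM values for 34745 genes. The submitters' processing notes name mm10 and TopHat2 2.0.9, while the counting tool, annotation and strand setting are not given in the sources used here. The table holds no counts, and in each library only 51.5% to 53.3% of low values fell on whole fragments (tolerance 0.05), so no count test was made.

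Genes averaging 1 FPKM or more were fitted as log2(FPKM + 1) in R 4.3.3 with limma 3.58.1 (a mean per stage, eBayes with trend), with p-values adjusted by the Benjamini-Hochberg method over 10279 genes and a threshold of 0.05. The script was run on simulated data with the same spread for every gene, unlike these data, so that run checks the code and not the results. Exon length (all annotated exons of a gene, merged), GC content (longest transcript) and positions came from GENCODE M21. Copies came from blastn 2.17.0 (at least 95% identity over at least 200 bases). The labels give replicate numbers and no shared source. Deviations of same-numbered libraries correlated across all genes tested at 0.24, 0.31 and 0.49 in the 3 pairs of stages, so same-numbered libraries were taken as pairs. Blocked values stand beside calls of members and of listed genes that they changed. The pairing rests on the same deviations that the block removes, so these correlations do not support the blocked calls. Nothing in the labels says what separates the libraries of a stage, and p-values measure only the spread between them.

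Genes were named by rule: members past the threshold with or without the block, the 3 highest and 3 lowest changes per contrast, core subunits, isoform pairs and the highest member of each complex, with 5 regulators and up to 3 called genes of each other list. Any other gene was picked with its values known. Some genes are not reported here. The members, lists and tests were chosen with earlier results of these data known.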

Additional observations from a re-analysis of the deposited data

How the results depend on the processing

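Alternatives were a pseudocount of 0.1, no level filter, quantile normalization, centring on the median, only the stages compared, a correction for GC content and length, the replicate block, the block and this correction together, and each library left out. Called members: in PM-LMSCs against A-LMSCs, 0 to 1 when a library was left out (Ndufa4l2, without the first M-LMSC library). In M-LMSCs against A-LMSCs the replicate block gave 2, the block with the GC content and length correction 0, and leaving out a library 0 to 1 (Ndufa4l2, without the second M-LMSC library). In M-LMSCs against PM-LMSCs every alternative gave 0.

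The members' median log2 fold change in PM-LMSCs against A-LMSCs (0.08) was 0.0455 with quantile normalization, 0.0479 with centring, 0.0335 with the correction, with or without the block, and 0.00364 to 0.106 without one library. In M-LMSCs against A-LMSCs (0.02) it was -0.0328 with centring and -0.0848 to 0.0439 without one library. In M-LMSCs against PM-LMSCs (-0.05) it was -0.101 to 0.0206 without one library. The first of these medians was above 0 under every alternative. Without the second PM-LMSC library, however, it was 0.00364, below the median of all genes (0.0223). The second also fell to -0.0029 with the correction and to -0.0042 without the second A-LMSC library, and the third was above 0 without the second PM-LMSC or the first M-LMSC library. Of single genes, the change of Ndufa4l2 in M-LMSCs against PM-LMSCs (0.68) ranged from -0.0336 without the second M-LMSC library to 1.40 without the first, and that of Ndufa4 in PM-LMSCs against A-LMSCs (0.27) from -0.0556 without the first PM-LMSC library to 0.604 without the second. The cause was not tested. The block changed no other call among the members. Depth and 2 libraries a stage limit these results, and whether genes near 1 FPKM are limited most was not tested.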
